A study of Mus musculus with 6 samples.

Results

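The fibroblast growth factor (FGF) and ERK feedback genes described here are 10 genes of the FGF pathway, taken by name: the ligands Fgf4, Fgf8 and Fgf15, the receptors Fgfr1 and Fgfr2, the feedback inhibitors Dusp6, Spry2 and Spry4, and the transcription factor genes Etv4 and Etv5. They are 10 of the 55416 genes in the counts, found through their Ensembl identifiers and GENCODE M39 names, and all 10 passed the filter on low counts. RNA was measured by RNA-seq in epiblast-like cells (EpiLCs), the in vitro counterpart of the early postimplantation epiblast, made from mouse embryonic stem cells. The comparison was of 3 libraries labelled wild type (WT) with 3 labelled Oct6 knockout (KO), each described as a biological replicate. Both groups derive from the 46C line, which carries a green fluorescent protein gene in the Sox1 locus. The WT cells were the parental line, and the KO cells were 1 clone in which CRISPR/Cas9 had left a homozygous insertion of 1 nucleotide near the start codon of Oct6 (Pou3f1), a POU-domain transcription factor. Both were cultured for 48 h on fibronectin in N2B27 medium that held KSR at 1%, bFGF at 12 ng/ml and Activin A at 20 ng/ml as the sample labels give them, while the series text gives both factors in µg/ml. All 6 cultures therefore received an FGF ligand from the medium. A KO clone compared with its parental line carries any other change of that clone as well, and the effects of Oct6 and of the clone cannot be told apart.

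FGF ligands bind receptor tyrosine kinases, which pass the signal through RAS, RAF and MEK to the ERK kinases. In mouse embryonic stem cells, autocrine FGF4 acting through this pathway drives the exit from the naive state, and a MEK inhibitor is part of the medium that holds cells in that state. Active ERK induces the ETS factors ETV4 and ETV5 and also its own inhibitors, the Sprouty proteins, which act upstream of ERK, and the phosphatase DUSP6, which removes phosphate from ERK itself. The amounts of these RNAs are therefore often read as a record of ERK activity, which was not measured in these libraries.

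The libraries held between 10995505 and 14680930 counts. Values are given as CPM, the count of a gene per 1000000 counts of the library, with library sizes scaled by edgeR's TMM method, and fold changes are KO minus WT on the log2 scale with their standard errors (SE). Adjusted p-values come from the quasi-likelihood test of edgeR, adjusted after Benjamini and Hochberg over the 15746 genes tested, and a gene was called changed at an adjusted p below 0.1, the false discovery rate the study used. Pou3f1 itself stood at 161, 143 and 122 CPM in WT replicates 1 to 3 and at 127, 141 and 128 CPM in the KO, a log2 fold change of -0.10 ± 0.11 (SE, adjusted p = 0.574). An insertion of 1 nucleotide leaves the transcript in place for counting, so this gene does not check the labels. The summed level of 8 epiblast and formative marker genes was between 3059 and 3395 CPM in WT and between 3077 and 3247 CPM in KO libraries, and 3 of the 8 were called higher, Otx2 (log2 fold change 0.92), Fgf5 (0.65) and Sox2 (0.42). The others were not called, among them the abundant Pou5f1 (-0.19) and Dnmt3b (-0.19). The 8 naive markers summed to between 241 and 250 CPM in WT and between 327 and 410 CPM in KO libraries, with Nanog, Zfp42 and Esrrb called higher. Klf4, Klf5, Tbx3, Tfcp2l1 and Nr0b1 were not called, and the log2 fold changes of Klf5 (-0.33) and Tbx3 (-0.12) were below 0. Neural plate markers summed to between 73.1 and 77.4 CPM in WT and between 35.3 and 39.3 CPM in KO libraries. Primitive endoderm markers summed to between 4.46 and 5.15 CPM in WT and between 5.01 and 13.8 CPM in KO libraries, with 3 of 6 below 1 CPM in every library, and primitive streak markers to between 7.30 and 8.43 CPM and between 9.49 and 13.2 CPM, with 4 of 6 below 1 CPM. None of these markers was at 0 in every library, and the part of these other cell states in the changes below was not tested. In such bulk libraries, fewer cells expressing a gene and less of its RNA per cell cannot be told apart.

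Of the 10 genes, 6 were called changed, 3 higher and 3 lower in the KO, where 24.3% of all genes tested were called, 11.8% as higher and 12.5% as lower. Fgf15, Fgfr2 and Etv5 rose, and Fgf4, Spry4 and Etv4 fell. In each of these 6 genes the libraries of the groups did not overlap, as in 33.7% of all genes tested. The largest of the changes was just under a doubling, and none of the 10 reached a log2 fold change of 1 in either direction, which 6.21% of all genes tested did along with the adjusted p. Neither the upstream nor the downstream genes moved one way. Of the 5 ligand and receptor genes, 2 rose and 1 fell (median log2 fold change 0.45), and of the 5 feedback and target genes, 1 rose and 2 fell (median -0.0054), beside a median of 0.0014 over all genes tested. The median of 0.45 was the value of Fgf8, which was not called and had few counts. This median was 0.25 with at least 10 counts required in every library, and 0.20 without WT replicate 2.

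**Figure D1:**
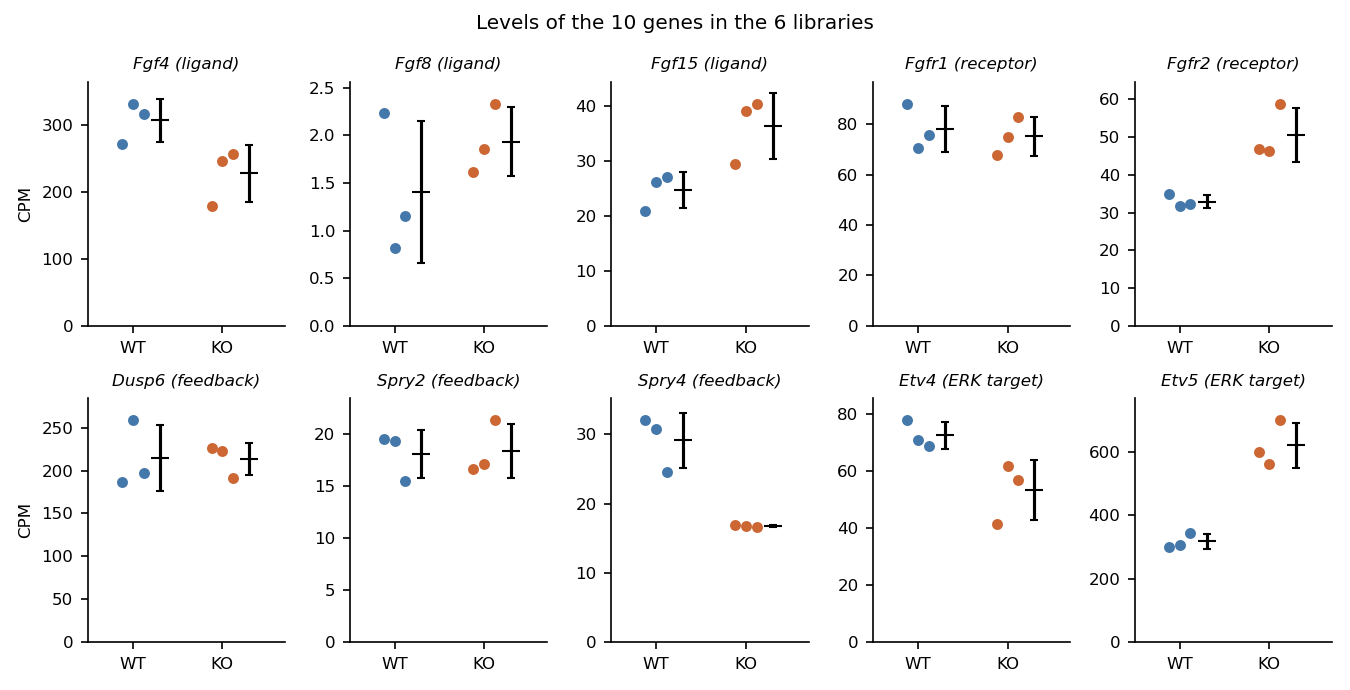
CPM (y axis, from 0) of each of the 10 genes in the 3 WT (blue) and 3 KO (orange) libraries, replicates 1 to 3 from left to right, with the group mean ± SD (n = 3) in black. The groups do not overlap for Fgf4, Fgf15, Fgfr2, Spry4, Etv4 and Etv5, and they overlap for Fgf8, Fgfr1, Dusp6 and Spry2.

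Among the ligands, Fgf4 fell and Fgf15 rose. Fgf4 (ENSMUSG00000050917.6, GRCm39 chromosome 7, 144401104 to 144418985) encodes the main autocrine FGF of embryonic stem cells and early epiblast. It was at 272, 332 and 318 CPM in WT replicates 1 to 3 and at 180, 247 and 257 CPM in KO replicates 1 to 3. Every KO library was below every WT library, with replicate 1 the lowest of its group in both genotypes. The means were 307 ± 31.6 CPM and 228 ± 42.2 CPM (SD, n = 3), a log2 fold change of -0.43 ± 0.12 (SE, adjusted p = 0.018). The call was lost without the library of KO replicate 1, where the log2 fold change was -0.29 (adjusted p = 0.122). WT replicate 1, the lowest of its group, stayed in that fit. With the replicate number as a block in edgeR's fit of all 6 libraries, the log2 fold change of Fgf4 was -0.44 (adjusted p = 2.0e-04).

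Fgf15 (ENSMUSG00000031073.7, GRCm39 chromosome 7, 144450268 to 144454690) encodes the mouse counterpart of human FGF19, a ligand of the endocrine FGF subfamily. It was at 21.0, 26.2 and 27.1 CPM in WT and at 29.4, 39.03 and 40.4 CPM in KO libraries. The 3 KO values lay above all WT values, the nearest being those of KO replicate 1 and WT replicate 3. The log2 fold change was 0.55 ± 0.14 (SE, adjusted p = 0.0091), from 24.7 ± 3.29 to 36.3 ± 5.99 CPM (SD, n = 3). An antisense RNA gene, Gm26793, shares 761 exon bases with Fgf15 but held 69 counts over all 6 libraries. Whether the counting used the strand is not given in the sources used here.

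Fgf4 and Fgf15 are neighbours on chromosome 7 and moved in opposite directions. Their annotated ends lie 31282 bases apart, within a stretch of 102064 bases that also holds Fgf3 before them and Ccnd1, the cyclin D1 gene, after them. Fgf3, another FGF ligand gene, had a log2 fold change of -0.46 ± 0.36 (SE) and was not called (adjusted p = 0.431). Ccnd1 fell by 0.52 ± 0.12 on the log2 scale (SE, adjusted p = 0.0035). Along these 4 neighbouring genes, therefore, Fgf15 was the gene that rose, between a pair that fell. The ratio of Fgf15 to Fgf4 counts within a library was 0.0772, 0.0788 and 0.0852 in WT and 0.164, 0.158 and 0.157 in KO libraries.

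Fgf8 (ENSMUSG00000025219.14, GRCm39 chromosome 19, 45725237 to 45731354), a ligand known from the primitive streak and from patterning of the embryo, was close to the lower limit of measurement. It had 30, 9 and 17 counts in WT and 20, 24 and 31 counts in KO libraries, or 2.24, 0.821 and 1.15 CPM and 1.62, 1.85 and 2.33 CPM. The groups overlapped, WT replicate 1 being above KO replicates 1 and 2. The log2 fold change of 0.45 ± 0.39 (SE, adjusted p = 0.491) had a 95% interval from -0.37 to 1.27, which holds both no change and a doubling.

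Of the receptors, Fgfr2 rose and Fgfr1 was not called. Fgfr1 (ENSMUSG00000031565.19, GRCm39 chromosome 8, 26003670 to 26066824), the main FGF receptor of the epiblast, was at 88.1, 70.5 and 75.6 CPM in WT and at 67.7, 74.8 and 83.0 CPM in KO libraries. The groups overlapped throughout, and the same replicate number was highest in one genotype and lowest in the other. The log2 fold change was -0.056 ± 0.11 (SE, adjusted p = 0.789), with a 95% interval from -0.29 to 0.18.

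Fgfr2 (ENSMUSG00000030849.19, GRCm39 chromosome 7), a receptor best known in the early embryo from the primitive endoderm and trophectoderm, was at 34.9, 31.7 and 32.2 CPM in WT and at 46.7, 46.3 and 58.8 CPM in KO libraries. All KO libraries were above all WT libraries, and KO replicate 3 was the highest. The means were 32.9 ± 1.71 and 50.6 ± 7.11 CPM (SD, n = 3), a log2 fold change of 0.62 ± 0.12 (SE, adjusted p = 0.0010). The GENCODE M39 model of Fgfr2 runs from 129763471 to 132725079 and shares 314 exon bases with Ctbp2 on the same strand, and how the authors' counting treated such bases is not given in the sources used here. Of the 6 primitive endoderm markers, 3 could be tested. Gata6 (log2 fold change 1.35, adjusted p = 0.012) and Pdgfra (0.94, adjusted p = 0.099) were called higher at under 5 CPM in every library, and Sox17 was not called, while Gata4, Foxa2 and Sox7 were too low to test. Within each library, Fgfr2 had 0.395, 0.449 and 0.426 counts for each Fgfr1 count in WT and 0.691, 0.619 and 0.708 in KO.

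**Figure D2:**
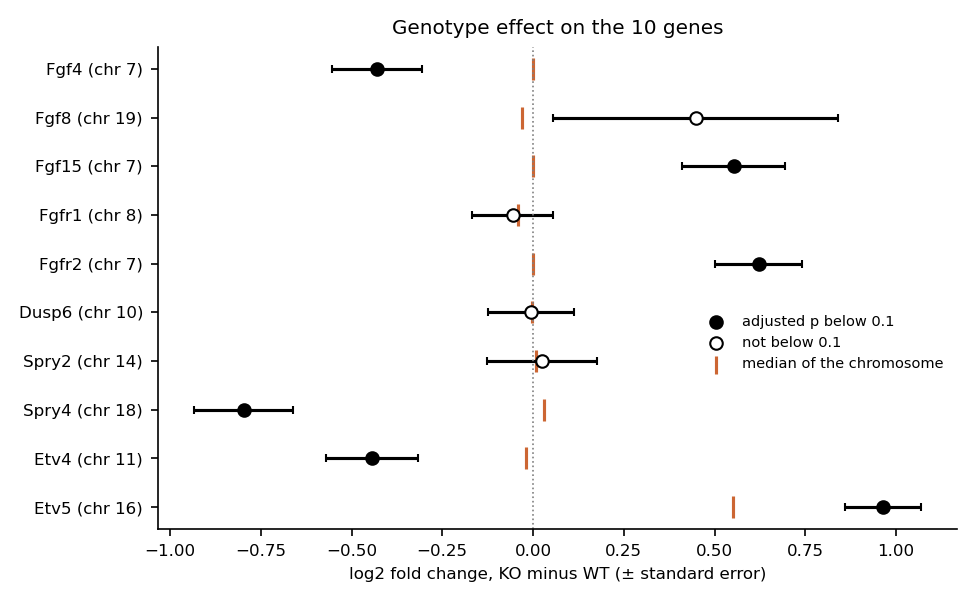
Log2 fold change (x axis, KO minus WT, ± SE) of the 10 genes from edgeR's quasi-likelihood fit, filled where the adjusted p was below 0.1, with the median of all genes tested on the same chromosome as an orange bar. The median of chromosome 16, where Etv5 lies, stands at 0.55, and the medians of the other members' chromosomes lie near 0.

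The feedback inhibitors divided as well, Spry4 falling while Spry2 and Dusp6 were not called. Dusp6 (ENSMUSG00000019960.9, GRCm39 chromosome 10, 99086564 to 99103361), the cytoplasmic ERK phosphatase gene whose RNA is a widely used readout of FGF and ERK signaling, was at 187, 259 and 197 CPM in WT and at 226, 222 and 192 CPM in KO libraries. The groups overlapped, the highest and the lowest of the 6 values both being from WT libraries. The means were 214 ± 38.6 and 213 ± 18.8 CPM (SD, n = 3), and the log2 fold change of -0.0054 ± 0.12 (SE, adjusted p = 0.983) had a 95% interval from -0.25 to 0.24. This interval does not hold changes as large as those of Spry4 or Etv4 in their point estimates.

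Spry2 (ENSMUSG00000022114.6, GRCm39 chromosome 14, 106128766 to 106136446), which encodes a Sprouty inhibitor of receptor tyrosine kinase signaling, was at 19.5, 19.3 and 15.4 CPM in WT and at 16.6, 17.0 and 21.3 CPM in KO libraries. The groups overlapped. The log2 fold change was 0.025 ± 0.15 (SE, adjusted p = 0.941), with a 95% interval from -0.29 to 0.34.

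Spry4 (ENSMUSG00000024427.8, GRCm39 chromosome 18, 38719300 to 38736025), of the same inhibitor family, was at 32.0, 30.8 and 24.6 CPM in WT and at 16.9, 16.7 and 16.6 CPM in KO libraries. Every KO library was well below every WT library, and the KO values were nearly equal. The level fell from 29.1 ± 3.96 to 16.7 ± 0.115 CPM (SD, n = 3), a log2 fold change of -0.80 ± 0.14 (SE, adjusted p = 3.7e-04), which made Spry4 the most strongly lowered of the 10 genes. The ratio of Spry4 to Spry2 counts was 1.64, 1.60 and 1.60 in WT and 1.01, 0.982 and 0.781 in KO libraries.

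The ETS factor genes Etv4 and Etv5, related ERK-induced transcription factors, moved in opposite directions. Etv4 (ENSMUSG00000017724.15, GRCm39 chromosome 11, 101660568 to 101676197) was at 77.8, 71.0 and 68.7 CPM in WT and at 41.6, 61.6 and 56.7 CPM in KO libraries. All KO libraries were below all WT libraries, KO replicate 1 by the most. The means were 72.5 ± 4.70 and 53.3 ± 10.5 CPM (SD, n = 3), a log2 fold change of -0.44 ± 0.13 (SE, adjusted p = 0.018). As with Fgf4, the call was lost without KO replicate 1, where the log2 fold change was -0.30 (adjusted p = 0.119). With the replicate number as a block in edgeR's fit, the log2 fold change of Etv4 was -0.46 (adjusted p = 0.0030).

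Etv5 (ENSMUSG00000013089.16, GRCm39 chromosome 16, 22200052 to 22259662) was at 302, 308 and 345 CPM in WT and at 600, 563 and 700 CPM in KO libraries. The lowest KO value was well above the highest WT value. The level rose from 318 ± 23.4 to 621 ± 70.8 CPM (SD, n = 3), 1.95-fold, or 0.96 ± 0.10 on the log2 scale (SE, adjusted p = 4.1e-06), the largest change of the 10 genes as measured.

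The change of Etv5 was set on a chromosome that was higher as a whole in the KO libraries. Of 471 genes tested on chromosome 16, 308 were called higher and 2 lower, and their median log2 fold change was 0.55, while the medians of the other members' chromosomes lay between -0.041 and 0.030. Relative to the median of its chromosome, Etv5 was higher by 0.41 on the log2 scale, and 52 genes of chromosome 16 had larger values. On that scale Etv5 was no longer the most changed member, Spry4 (-0.83), Fgfr2 (0.62), Fgf15 (0.55), Fgf8 (0.48), Fgf4 (-0.43) and Etv4 (-0.42) lying further from the medians of their chromosomes in point estimates. Of these, Fgf8 was not called (SE 0.39). Fgf4, Etv4, Fgf15 and Fgf8 were within their SEs (0.12, 0.13, 0.14 and 0.39) of Etv5 in size, so their order was not resolved. When the medians of chromosomes 6 and 16, the chromosomes with shifted medians, were removed in the fit, an alternative chosen after seeing the data, Etv5 remained higher (log2 fold change 0.41, adjusted p = 0.0094). The direction of Etv5 was thus the same with and without the chromosome shift, and its size on the log2 scale was 0.96 with the shift and 0.41 without it. No other member lies on chromosome 6 or 16.

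Counts of relatives within a library do not depend on how libraries are scaled, so ratios were taken for 4 pairs of the members, chosen after their values had been seen. Etv5 had 3.88, 4.34 and 5.02 counts for each Etv4 count in WT libraries and 14.4, 9.13 and 12.3 in KO libraries. The difference of the mean log2 ratios was 1.42, and it was 0.87 with the median of chromosome 16, where Etv5 lies, subtracted. In each of the 4 pairs the 3 WT ratios and the 3 KO ratios did not overlap, which the choice of pairs had fixed, so that the ratios are a description. An exact permutation test over libraries was run on the log2 ratios, but it could give no p below 0.1 with 3 libraries per group. The choice of pairs had fixed its outcome too, and no conclusion is drawn from it.

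**Figure D3:**
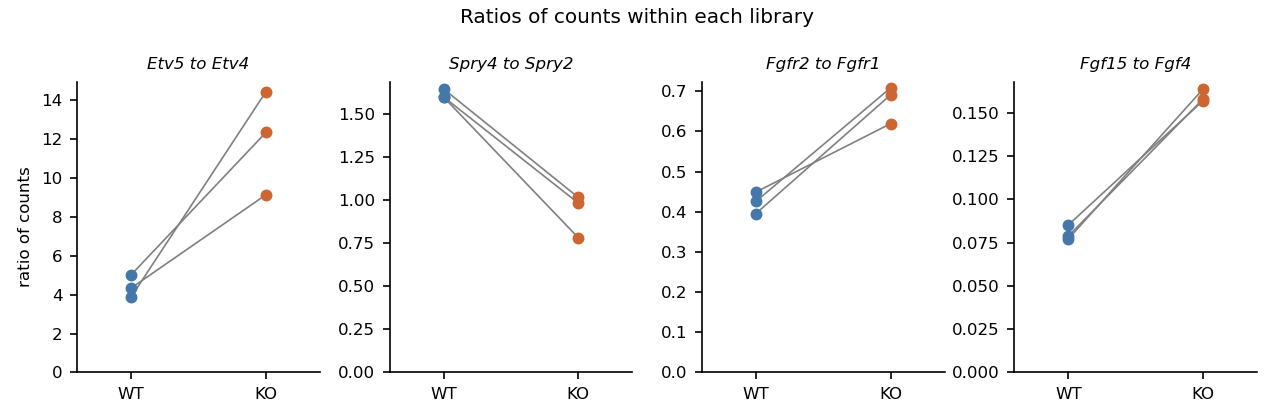
Ratio of the counts of a pair of genes within each library (y axis, from 0) in WT (blue) and KO (orange), with lines joining replicates of the same number. Etv5 to Etv4, Fgfr2 to Fgfr1 and Fgf15 to Fgf4 are higher in every KO library, and Spry4 to Spry2 is lower.

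Levels were compared between genes per kb of merged exon. In WT libraries Fgf4 was highest at 89.8 CPM per kb, followed by Dusp6 at 63.2, Etv5 at 42.4 and Etv4 at 22.9 CPM per kb. Fgf15 (8.09 CPM per kb) and Fgfr1 (6.11) came next, then Spry4 (4.41), Spry2 (3.51) and Fgfr2 (2.90), with Fgf8 last at 1.04 CPM per kb. The WT libraries of Fgf15 and Fgfr1 overlapped, as did those of Spry4 and Spry2 and those of Spry2 and Fgfr2, so that these neighbours did not differ beyond their spread. By the means of the KO libraries, Etv5 headed the order at 82.7 CPM per kb, ahead of Fgf4 at 66.7 and Dusp6 at 62.9. Spry4 at 2.54 stood below Fgfr2 at 4.47 and Spry2 at 3.56. The KO libraries of Etv5 and Fgf4 overlapped, as did those of Fgf4 and Dusp6 and those of Fgfr2 and Spry2. Per kb of the canonical transcript, the mean of Etv5 was already above that of Dusp6 in WT libraries, at 79.7 and 75.7 CPM per kb. On that scale the mean of Dusp6 was above that of Fgf4 in KO libraries, at 75.3 and 72.5 CPM per kb. In both cases the libraries of the genes compared overlapped, so these orders were not resolved.

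**Figure D4:**
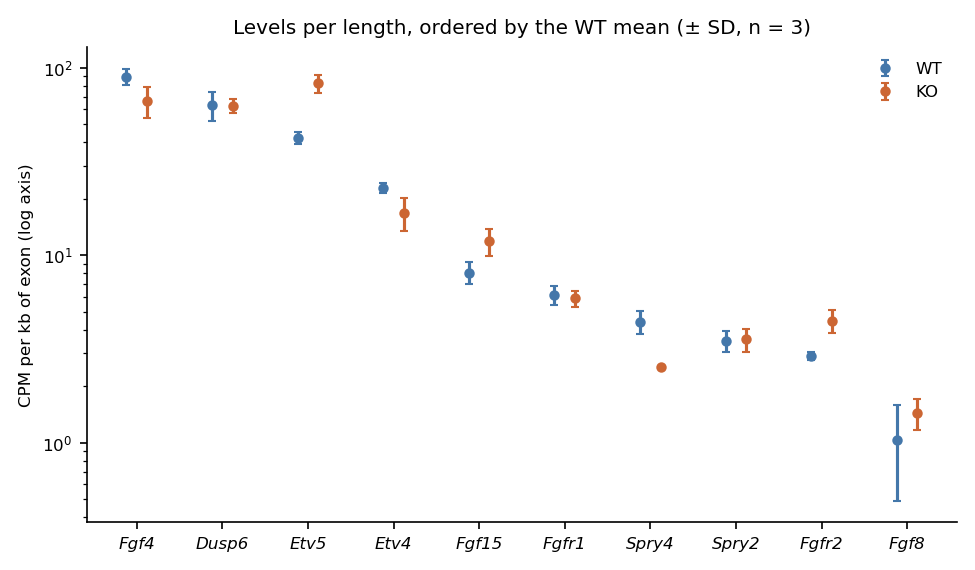
Level of each gene in CPM per kb of merged exon (y axis, log scale), mean ± SD of 3 WT (blue) and 3 KO (orange) libraries, ordered by the WT mean. Fgf4, Dusp6 and Etv5 lie above 40 CPM per kb in both groups, and Fgf8 lies lowest in both.

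The genes whose levels followed Etv5 most closely over the 6 libraries were Rab27a (Pearson's r = 0.995 of log2 CPM), Tfpi (0.994) and Smpdl3b (0.994), of 13227 genes compared. They lie on chromosomes 9, 2 and 4. A total of 351 genes were above an r of 0.95, and the points of all of them share the split of the 6 libraries into 2 groups.

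A list of 104 other genes of the pathway was then read by role. Of these, 84 were tested and 29 were called, 12 higher and 17 lower, which is 34.5% against the 24.3% of all genes tested, and their median log2 fold change was -0.12. Of the 29, 8 had changed by 1 or more on the log2 scale. Called genes were lower in 7 of 8 cases among other ERK targets and in 6 of 8 among other feedback inhibitors, and higher in 5 of 5 among the heparan sulfate genes. Of all 3833 genes called, 1969 were lower and 1864 higher.

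Among the other feedback inhibitors, 8 of 15 tested genes were called, a share of 53.3% beside the 24.3% of all genes tested. Spry1, a further Sprouty gene, fell by 0.60 ± 0.12 on the log2 scale (SE, adjusted p = 0.0014), from between 45.1 and 50.5 CPM in WT to between 27.5 and 36.0 CPM in KO libraries. Spred3, of the Sprouty-related family, and Dusp5, a nuclear ERK phosphatase gene, had log2 fold changes of -0.84 and -0.72. Spred1, Spred2 and Dusp1 were also called lower. Dusp4, a nuclear MAP kinase phosphatase gene, rose by 0.48 ± 0.11 on the log2 scale (SE, adjusted p = 0.0049), and Dusp9, a cytoplasmic one, by 0.35. The call of Dusp9 was lost without WT replicate 1 (0.26, adjusted p = 0.160), KO replicate 2 (0.31) or KO replicate 3 (0.31). The Sprouty and SPRED genes called were thus lower, while the DUSP genes called went both ways. Spry2 and Dusp6 were not called.

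Of 16 other ERK targets tested, 8 were called, a share of 50% beside the 24.3% of all genes tested. Junb, an AP-1 subunit gene and immediate early gene, fell most, from 29.7, 26.1 and 27.5 CPM in WT to 10.4, 11.9 and 11.6 CPM in KO libraries (log2 fold change -1.30 ± 0.14, SE, adjusted p = 3.8e-06). Phlda1 and Maff had log2 fold changes of -1.14 and -0.82, at under 10 CPM in every library. The call of Maff was lost without WT replicate 2 (-0.72, adjusted p = 0.118) or KO replicate 1 (-0.59, adjusted p = 0.151). Ier2, Ier3, Srf and Ccnd1 were called lower too, and Ier5, an immediate early response gene, rose from between 12.7 and 13.5 CPM to between 23.5 and 25.1 CPM.

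The heparan sulfate genes build the sugar chains and core proteins that help FGFs to bind their receptors. Of 18 tested, 5 were called, all higher, a share of 27.8% beside the 24.3% of all genes tested. Hs6st2, a heparan sulfate 6-O-sulfotransferase gene, rose from 5.45, 4.93 and 8.79 CPM to 25.3, 20.5 and 18.95 CPM (log2 fold change 1.74 ± 0.20, SE, adjusted p = 7.8e-06). The glypican genes Gpc3 and Gpc6 rose by 1.20 and 1.14 on the log2 scale, and the syndecan genes Sdc2 and Sdc4 were called higher as well. Gpc6, at under 4 CPM in every library, lost its call without WT replicate 2 (0.91, adjusted p = 0.111) or KO replicate 1 (0.99, adjusted p = 0.119). The sulfation of the chains was not measured.

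Of 7 other FGF ligand genes tested, Fgf5, a marker of the formative and postimplantation epiblast, rose by 0.65 ± 0.11 on the log2 scale (SE, adjusted p = 3.8e-04), from between 59.0 and 81.0 CPM to between 106 and 115 CPM. Fgf13 and Fgf11, genes of the intracellular FGF-like subfamily that does not signal through these receptors, had log2 fold changes of 1.45 and -1.89 at under 6 CPM in every library. None of 6 other receptor and co-receptor genes was called by edgeR, and none had an unadjusted p below 0.05.

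The relay list ran from receptor to ERK and also held Rps6ka genes, whose kinases act after ERK. In it, 5 of 22 genes tested were called, 2 higher and 3 lower, a share of 22.7% that lay near the 24.3% of all genes tested. Rps6ka2, which encodes a kinase activated by ERK, rose by 1.01 ± 0.12 on the log2 scale (SE, adjusted p = 6.6e-06). The adaptor gene Shc1 and the ERK kinase gene Mapk3 had log2 fold changes of -0.47 and -0.36. The call of Mapk3 was lost without WT replicate 2 (-0.25), KO replicate 1 (-0.31) or KO replicate 3 (-0.37, adjusted p = 0.119).

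**Figure D5:**
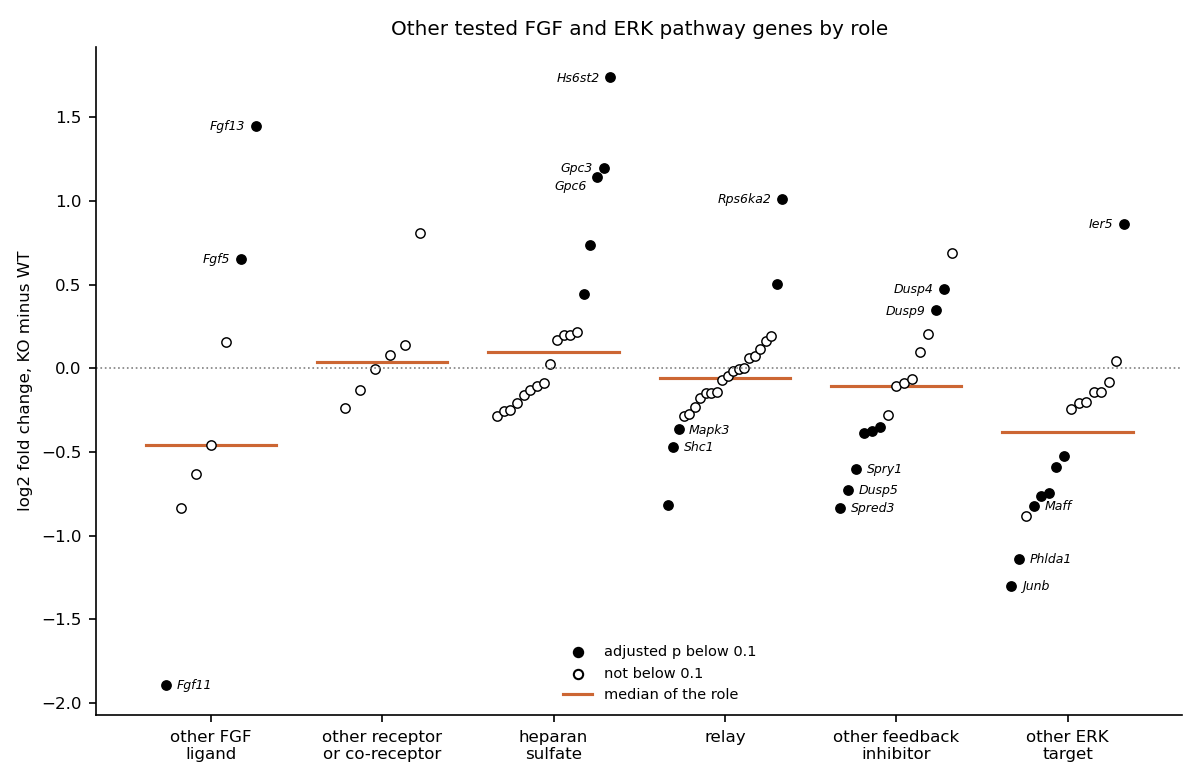
Log2 fold change (y axis, KO minus WT) of the 84 other pathway genes tested, grouped by role and sorted within each role, filled where the adjusted p was below 0.1, with the median of the role in orange and the named genes labelled. The filled points are mostly below 0 among other feedback inhibitors and other ERK targets and above 0 among heparan sulfate genes.

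Promoter sequences from RefSeq (GRCm38.p6), reaching from 250 bases before to 50 bases after a start, were searched on both strands for the ETS core CCGGAA, the octamer ATGCAAAT bound by POU factors and the octamer without its last base, ATGCAAA, which every full octamer also holds. For 5 members, 6 promoters were matched, those of Fgf4, Fgfr2, Dusp6, Spry2 and Etv5. The ETS core was present in 14.9% of 32851 promoters and, among the members, in that of Spry2, whose RNA was not called. The octamer was present in 1.74% and its shortened form in 4.63% of all promoters, and neither in the 6 promoters of the members. The Spry2 match is shown because it is the one motif found among the members, with the motif in capitals and 5′ to 3′ on the gene's strand, at chr14:105896770-105896798 on the minus strand.
Spry2: aggtcatctatcCCGGAAtccgggagggt
A match of letters is a description and does not show a bound site.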

How the data were processed

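RNA was sequenced from 3 biological replicates of WT and 3 of Oct6 KO EpiLCs. Per the study's methods, the authors prepared stranded, ribosomal RNA-depleted libraries, used Fastp for trimming and STAR (two-pass mode, GRCm39) for both mapping and gene counts. The deposited values are raw counts per gene, without normalization or filter. The annotation release, the strand setting and the handling of reads with several matches are not given in the sources used here.

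Of 55416 identifiers, 54749 were matched to GENCODE M39 and 667 were not. Library totals were between 10995505 and 14680930 counts, and libraries of a group differed by more than sampling noise (chi-square per degree of freedom between 6.94 and 11.8). Genes were tested in R 4.3.3 with edgeR 4.0.16 (TMM, filterByExpr with a minimum count of 10, quasi-likelihood test with genotype as the only term, Benjamini-Hochberg adjustment over 15746 genes). The common dispersion was 0.0137. SEs were derived from the F statistic, and 95% intervals from the SE and the test's degrees of freedom. The study itself used DESeq2 and an FDR of 0.1. On simulated counts, for the KO against WT comparison with 15437 genes, 38.4% of genes changed by 0.5 and 78% of those changed by 1 on the log2 scale were called. The simulation changed 200 genes, while 3833 genes were called in the data. These shares therefore do not give the sensitivity of the comparison itself.

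The members and lists were chosen with earlier results of these data known. Genes were named by rule: the 10 members, Pou3f1, in each role of the wider list the called genes with at most 3 largest increases and 3 largest decreases, and the 3 genes whose log2 CPM (prior count 2, average log2 CPM of at least 1) correlated best with the most changed member. Other called genes are named without that rule, after their values were seen, as are the 4 ratios. Of the genes the rule selects, some are not reported here.

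The series describes the replicates as paired. Across 13078 genes, deviations from the group means of libraries with the same number correlated at 0.257, 0.298 and 0.122, and those with different numbers between -0.233 and -0.0379. A fit with the replicate number as a block was therefore an alternative, beside RLE factors, library totals alone, other filters, DESeq2 1.42.0, stricter thresholds, chromosomes 6 and 16 left out or centred, and each library left out. Protein sequences were not analysed here.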

Additional observations from a re-analysis of the deposited data

How the results depend on the processing

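Across the alternatives run, the 6 members called kept their direction, and Fgf15, Fgfr2, Spry4 and Etv5 kept an adjusted p below 0.1 wherever a test was made. Leaving out 1 library in turn gave log2 fold changes from -0.52 to -0.29 for Fgf4 and from -0.56 to -0.30 for Etv4, whose calls were lost without KO replicate 1. The uncalled Fgfr1 ran from -0.13 to 0.037, Dusp6 from -0.096 to 0.15 and Spry2 from -0.097 to 0.088, so that their signs changed. With the replicate block, 6 members and 33 wider-list genes were called. Of all 15746 genes tested, 4764 were called in that fit, against 3833 in the main fit. With the block, Dusp6 stood at 0.0043, and no call changed among the members, Pou3f1 and the wider-list genes named by rule. With the median of the chromosome subtracted, Etv5 stood at 0.41. With a change of 1 or more on the log2 scale also required, 0 members and 8 wider-list genes were called, beside 6.21% of all genes tested. With chromosomes 6 and 16 left out, and Etv5 with them, the median of the feedback and target genes was -0.23. With each library left out, between 4 and 6 members and between 24 and 30 wider-list genes were called. Of between 16098 and 16206 genes tested in these fits, between 3058 and 3790 were called. In simulated counts with 3 libraries per group, changes of 0.5 on the log2 scale were often missed (38.4% of 99 genes called, in the KO against WT comparison with 15437 genes). Only 200 genes were changed there, against 3833 called in the data, so this share does not give the sensitivity of the comparison itself. Of the 4 uncalled members, Fgf8 had a 95% interval that reached 0.5.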
